A study of Mus musculus with 9 samples.

Results

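Airn is an imprinted long non-coding RNA, and this report describes where peaks of the RNA-binding protein SAFB lay along it in mouse embryonic stem cells. The members are the plus-strand peaks of the authors' single deposited list whose midpoint falls inside Airn (ENSMUSG00000078247.4, mm10, chromosome 17, 12741311 to 12860136, plus strand). They number 21 of 30998 peaks. Of all 55450 annotated genes, 12.8% held at least 1 peak on their own strand, and of the long non-coding genes 8.14%.

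SAFB proteins are nuclear RNA-binding proteins named for their binding to scaffold attachment regions of DNA. The 9 libraries hold RNA recovered by immunoprecipitation. The FLAG antibody was used on cells of a safb1/2 dko clone carrying a full-length SAFB1 plasmid (1 library) or an eGFP plasmid (1 library). The SAFB1 antibody was used on 2 safb1/2 dko clones (2 libraries) and on wild-type cells, namely a parental line and 2 clones of it (3 libraries). IgG was used on wild-type cells, the parental line and 1 of those clones (2 libraries). All cells were of the strain CAST/B6 Male Rosa26-RMCE and were given doxycycline for 3 days. The labels do not say what doxycycline induced. For the library with the SAFB1 plasmid the labels disagree, with WT as genotype and a dko clone in the title; it is grouped here by its title.

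The list gives positions and no value per library. Its score is 500 throughout, so it ranks nothing, and depth behind a peak is unknown. No antibody or genotype could be compared for Airn, no value has replicates, and every value is a description without a test. The peaks share 1 RNA and are not independent of each other. A CAST/B6 cell carries both parental alleles, and the list does not separate them. The labelled cell type could not be checked from levels either. Sense peaks lay in 3 of 10 stem cell markers, 3 of 5 primitive endoderm markers and 2 of 5 fibroblast markers, against 26.2% of all protein-coding genes, and so few genes tell nothing of the cell type.

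Airn is transcribed on the strand opposite to Igf2r, from a promoter inside an intron of that gene. Igf2r encodes the receptor that carries mannose 6-phosphate proteins and the growth factor IGF2 to lysosomes. Airn is known to be made from the paternal chromosome, to stay mostly unspliced in the nucleus, and to silence Igf2r on that chromosome. In placenta it also silences the organic cation transporter genes Slc22a2 and Slc22a3.

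The sequences below are the stretches under Airn peaks for which an annotated transcript gives the letters, with the promoter that starts the RNA. They are written on the Airn strand, 5′ to 3′, and were read from GENCODE M21 transcripts (GRCm38), except the promoter, which is from RefSeq (GRCm38.p6). Capitals mark purine hexamers, namely GAAGAA, its shifted form AGAAGA and the next shifted form AAGAAG. These overlap each other and were searched because SAFB proteins are described to prefer purine-rich RNA. From exons over 300 bases, the 300-base window under the peak with the most such hexamers was taken (the middle one of tied windows).
Airn-203 exon 2, chr17:12779290-12779512, inside peak 12: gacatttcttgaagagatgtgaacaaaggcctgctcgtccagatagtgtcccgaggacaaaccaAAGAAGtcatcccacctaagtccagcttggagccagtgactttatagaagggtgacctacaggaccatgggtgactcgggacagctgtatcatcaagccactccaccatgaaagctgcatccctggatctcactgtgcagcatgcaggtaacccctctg
Airn-201 exon 2, chr17:12815111-12815410, inside peak 19: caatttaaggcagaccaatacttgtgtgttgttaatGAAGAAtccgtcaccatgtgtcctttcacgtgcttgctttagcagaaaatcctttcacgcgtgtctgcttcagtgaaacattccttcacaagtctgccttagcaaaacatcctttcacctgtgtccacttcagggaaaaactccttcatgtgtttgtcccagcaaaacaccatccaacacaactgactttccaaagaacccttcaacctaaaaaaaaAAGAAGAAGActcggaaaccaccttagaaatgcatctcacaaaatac
Airn-205 exon 1, chr17:12816075-12816374, inside peak 19: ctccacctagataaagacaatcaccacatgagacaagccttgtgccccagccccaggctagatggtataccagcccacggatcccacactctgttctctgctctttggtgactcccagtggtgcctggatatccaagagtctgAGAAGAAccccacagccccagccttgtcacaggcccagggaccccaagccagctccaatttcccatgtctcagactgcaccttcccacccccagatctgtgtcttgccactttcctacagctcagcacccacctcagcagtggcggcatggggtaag
Gm23833, chr17:12770631-12770882, inside peak 10: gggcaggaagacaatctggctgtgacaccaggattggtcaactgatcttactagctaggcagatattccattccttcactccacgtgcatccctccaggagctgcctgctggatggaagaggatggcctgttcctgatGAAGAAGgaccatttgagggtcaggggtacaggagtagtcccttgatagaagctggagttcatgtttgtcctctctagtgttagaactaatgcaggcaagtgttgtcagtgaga
Airn promoter, chr17:12741061-12741360: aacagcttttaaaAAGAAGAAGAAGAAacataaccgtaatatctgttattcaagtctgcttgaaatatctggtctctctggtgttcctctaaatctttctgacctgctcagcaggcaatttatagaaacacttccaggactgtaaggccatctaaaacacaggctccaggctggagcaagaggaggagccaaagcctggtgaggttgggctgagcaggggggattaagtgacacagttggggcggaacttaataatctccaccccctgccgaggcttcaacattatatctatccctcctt

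SAFB peaks began almost at the 5′ end of Airn and stopped well before its annotated 3′ end. Peak 1 (12741479 to 12743475) started 168 bases from the annotated start and 54 bases past the end of exon 1. Peak 21 (12818133 to 12818769) ended 77.5 kb from the start. The remaining 41.4 kb, or 34.8% of the gene, held no peak. Over the whole gene the density was 0.177 peaks per kb, and from the start to the end of peak 21 it was 0.271 per kb. Peaks covered 23498 bases, which is 19.8% of the gene and 30.3% of the stretch up to the end of peak 21.

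**Figure D1:**
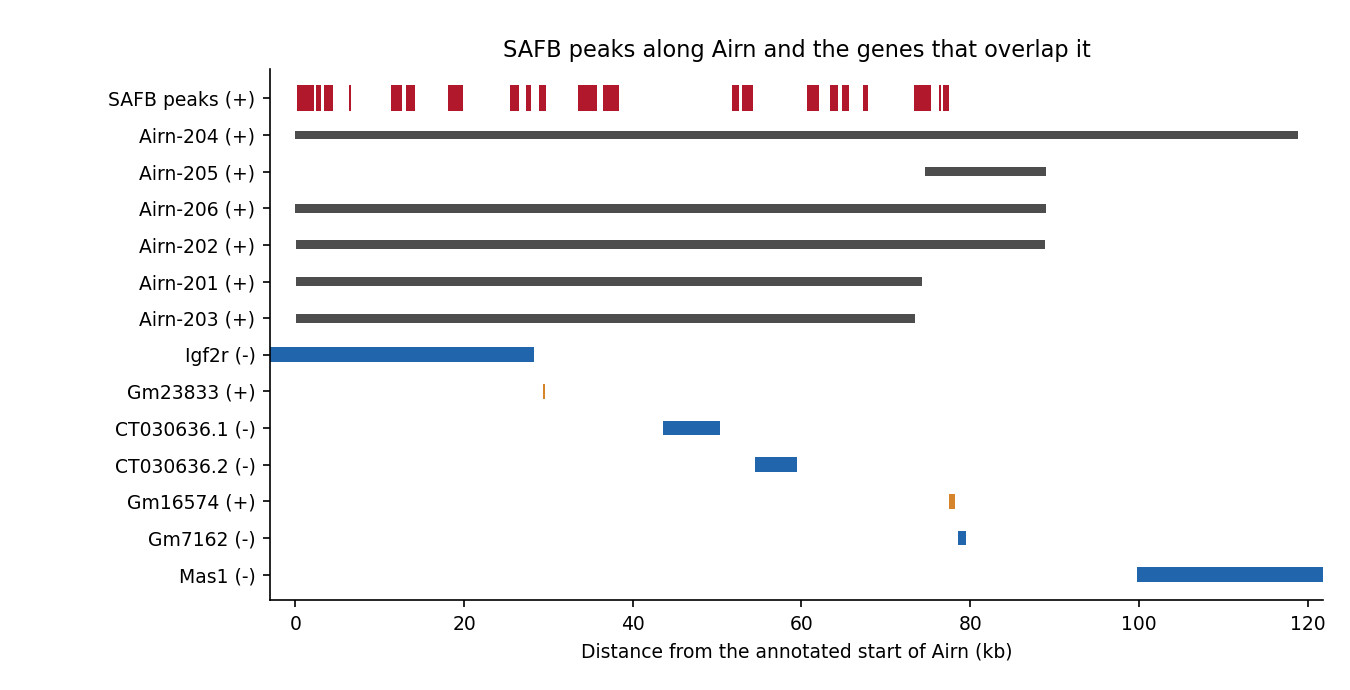
SAFB peaks along Airn (red, top row), the 6 annotated Airn transcripts drawn from their first to their last base (grey), and other genes on the minus (blue) and plus (orange) strand, by distance from the annotated start of Airn in kb. Igf2r and Mas1 run on past the plotted range. The 21 peaks end at 77.5 kb, and the last 41.4 kb of Airn are empty.

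The place where peaks end differs from the ends of the annotated transcripts. Airn-203 and Airn-201 end 73.4 and 74.2 kb from the start, inside peak 19, and peaks 20 and 21 lie wholly past both ends. Airn-202, Airn-206 and Airn-205 end between 88.8 and 89.0 kb, which is 11382 to 11566 bases past the last peak. Airn-204, the transcript that sets the annotated end of the gene, is the longest. Annotated on the Airn strand 23 bases after peak 21 is the processed pseudogene Gm16574. It is followed by the pseudogene Gm7162 on the other strand, 1049 bases after the peak. The list gives no reads, so whether RNA was recovered past peak 21 cannot be told from it.

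In 3 equal parts of the gene, the 5′ part held 12 peaks (57.1%, exact 95% binomial interval 34.0 to 78.2), the middle part 9 (42.9%, 21.8 to 66.0) and the 3′ part 0 (0%, 0 to 16.1). Peaks covered 36.7% of the 5′ part and 22.7% of the middle part. These intervals cover counting error alone and take each peak as independent. In 10 equal parts of 11.9 kb, counts from 5′ to 3′ were 4, 3, 4, 1, 2, 4, 3, 0, 0 and 0. The parts with 1 and 2 peaks are those around the widest gap.

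The part of Airn that overlaps Igf2r was dense in peaks. Airn shares its first 28.4 kb with Igf2r (chromosome 17, 12682406 to 12769664, minus strand), which is 23.9% of Airn and 32.5% of Igf2r. This part held 9 of the 21 peaks (42.9%, interval 21.8 to 66.0), or 0.317 per kb, and peaks covered 33.3% of it. The 90.5 kb past the Igf2r start held 12 peaks, or 0.133 per kb, with 15.6% covered. From the Igf2r start to the end of peak 21 the density was 0.244 per kb and the covered share 28.7%. The next comparison was added once the data had been seen. Up to the end of peak 21, the overlapping part has 36.6% of the length and 42.9% of the peaks. The interval of the peak share includes that length share, and it also includes the 23.9% of the whole gene.

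Peaks lay on the Airn strand and none on the Igf2r strand. No minus-strand peak had its midpoint in the 118.826 kb of Airn, and Igf2r held 0 sense peaks over 87.3 kb. All 9 peaks antisense to Igf2r were Airn peaks, and the 58.9 kb of Igf2r outside Airn held none on either strand. The list holds only what passed the authors' call, so this does not show that SAFB was absent from Igf2r RNA. Neither 0 is unusual in the list. Of genes within 1.5 times the length of Airn, 56.8% held at least 1 sense peak, so many held none. Airn was also not the only gene with 21 sense peaks and 0 antisense peaks.

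No Airn peak overlapped an exon of Igf2r. Exon 2 of Igf2r-201 lay 758 bases from the nearest peak, in the gap between peaks 4 and 5. Exon 1 lay 177 bases from peak 9. The start of Igf2r transcription, 28.4 kb into Airn, fell in a gap of 926 bases, with peak 9 ending 441 bases before it on the Airn strand and peak 10 beginning 484 bases after it. Peaks 8, 9 and 10 thus followed each other across the Igf2r promoter, with 929 and 926 bases between them.

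Peaks on Airn were wide relative to the list. Their median width was 981 bases (quartiles 637 and 1392, range 200 to 2274), against 596 for all 30998 peaks. Of the 21 peaks 17 were at least as wide as the median of the list. Widths of at least 1 kb were found in 10 of 21 Airn peaks (47.6%) and in 28.9% of all peaks. The widest, peak 11 (12774772 to 12777045), measured 2274 bases, a width reached by 2.64% of the list. Peak 19 (12814644 to 12816709, 2066 bases), peak 1 (1997 bases), peak 12 (12777746 to 12779645, 1900 bases) and peak 7 (12759422 to 12761184, 1763 bases) came next. The narrowest were peak 4 (200 bases) and peak 20 (202 bases).

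**Figure D2:**
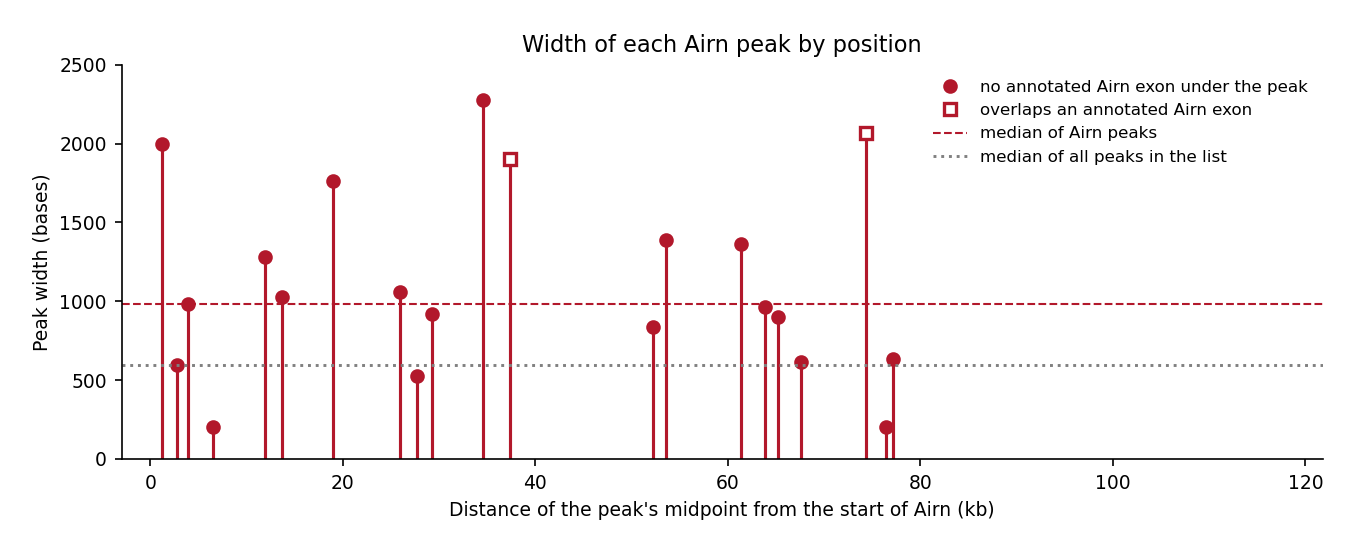
Width in bases of each of the 21 Airn peaks against the distance of its midpoint from the start of Airn in kb. Open squares mark the 2 peaks that overlap an annotated Airn exon. The dashed line is the Airn median of 981 bases and the dotted line the median of all peaks, 596 bases. Wide peaks occur at 1.17, 34.6, 37.4 and 74.4 kb, so they are spread over the occupied part.

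Width did not follow position in one direction. From 5′ to 3′, the 9 peaks of the part shared with Igf2r measured 1997, 593, 981, 200, 1284, 1027, 1763, 1059 and 524 bases, with a median of 1027. The 12 peaks past the Igf2r start measured 918, 2274, 1900, 837, 1392, 1363, 962, 901, 618, 2066, 202 and 637 bases, with a median of 940. The ranges of both parts overlap over almost their whole extent.

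The peaks came in tight runs. Gaps between neighbours had a median of 1140 bases (quartiles 508.25 and 4151, range 308 to 13420), against 17636.5 for all neighbours of the same strand in the list. Under 1 kb were 10 of 20 Airn gaps (50.0%) and 12.7% of all 30956 gaps. Gaps of the list also run between genes, while those of Airn lie in 1 gene, so these contrasts are not like for like. Within genes with at least 10 sense peaks, the median gap per gene had a median of 7106 bases. The smallest gap, 308 bases between peaks 20 and 21, is close to the smallest of the whole list, 305 bases. Joined across gaps under 1 kb, the peaks formed 11 groups, of which 7 had more than 1 peak and held 17 peaks. The groups with 3 peaks were at the 5′ end (0.168 to 4.43 kb from the start), around the Igf2r start (25.4 to 29.8 kb) and at the 3′ end of the occupied part (73.3 to 77.5 kb).

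Both of the widest gaps held a gene on the other strand. The widest, 13.4 kb between peaks 12 and 13, wholly contained CT030636.1, a lincRNA of 6779 bases on the minus strand. The next, 6.37 kb between peaks 14 and 15, wholly contained CT030636.2, a minus-strand lincRNA of 5050 bases. Its 3′ end lies 123 bases past peak 14. Neither lincRNA held a peak of its own. The other gaps over 5 kb, of 5.53 kb after peak 7 and 5.42 kb after peak 18, held no exon of another gene. Mas1, a G protein-coupled receptor gene on the minus strand, overlaps the last 19.1 kb of Airn, all of it in the empty end.

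None of the 21 midpoints lay in an annotated exon, but exons were more often under peaks than introns. The 6 transcripts have 3597 exonic bases, or 3.03% of the gene. Peaks covered 1916 of them (53.3%), against 18.7% of the intronic bases. All of these exonic bases lay under 2 peaks. Peak 12 covered the whole of Airn-203 exon 2 (223 bases). Peak 19 covered 914 of the 1062 bases of Airn-201 exon 2 and 779 of the 864 bases of Airn-205 exon 1, with its midpoint between them. Exon 1 and the exons at 57.0, 88.5, 117.8 and 118.2 kb lay under no peak. Those from 88.5 kb on lie past the last peak. In all, 8.15% of the bases under Airn peaks were exonic.

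Peak 10 (12770149 to 12771066) covered all 252 bases of Gm23833, annotated as a misc_RNA on the Airn strand. It was the only Airn peak to overlap an exon of another gene.

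Exons under and outside peaks had the same share of purines but not of the hexamers. A and G made up 49.4% of the 1916 exonic bases under peaks and 49.9% of the 1681 outside them. The hexamers, counted at every start on the Airn strand, occurred 11 times under peaks (5.74 per kb) and 2 times outside (1.19 per kb). Of the 11, 8 were in Airn-201 exon 2, 6 of them in the window printed above, where 5 overlap each other in the run AAGAAGAAGA. The count therefore rests largely on 1 exon. Most of the exonic bases outside peaks, in stretches of 511, 146 and 596 bases, lie past the last peak, in the empty 3′ end. Sequence of the intronic bases under peaks was not used here.

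The promoter window of Airn, which ends 118 bases before peak 1, carried the same hexamers in one run. It held 9 of them on the Airn strand and 0 on the other. All lie in the run AAGAAGAAGAAGAA, whose first GAAGAA begins 235 bases before the annotated start, outside the annotated RNA. GAAGAA occurred in 12.4% of 32544 distinct promoter windows of that length on the strand of the gene and in 22.7% on either strand. The longer GAAGAAGAAGAA, which overlaps the shorter ones, is not among the hexamers set out above and is part of the run in this promoter. It occurred in 0.086% on the strand of the gene and in 0.154% on either strand. These shares describe a word already present here and are no test of it. No peak lies in this window.

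Within 500 kb on each side Airn held most of the peaks. Of 28 peaks of either strand in this window of 1119 kb, 21 were in Airn (75.0%, exact interval 55.1 to 89.3), which is 10.6% of the length. The 500 kb before the Airn start held 0 peaks, so Plg, Slc22a3 and Slc22a2 had none. Past the Airn end lay 1 minus-strand and 6 plus-strand peaks. The minus-strand peak (12865441 to 12866467) was in an intron of Mas1, 5.31 kb past the end of Airn. Outside Airn, plus-strand peaks had a density of 0.006 per kb.

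**Figure D3:**
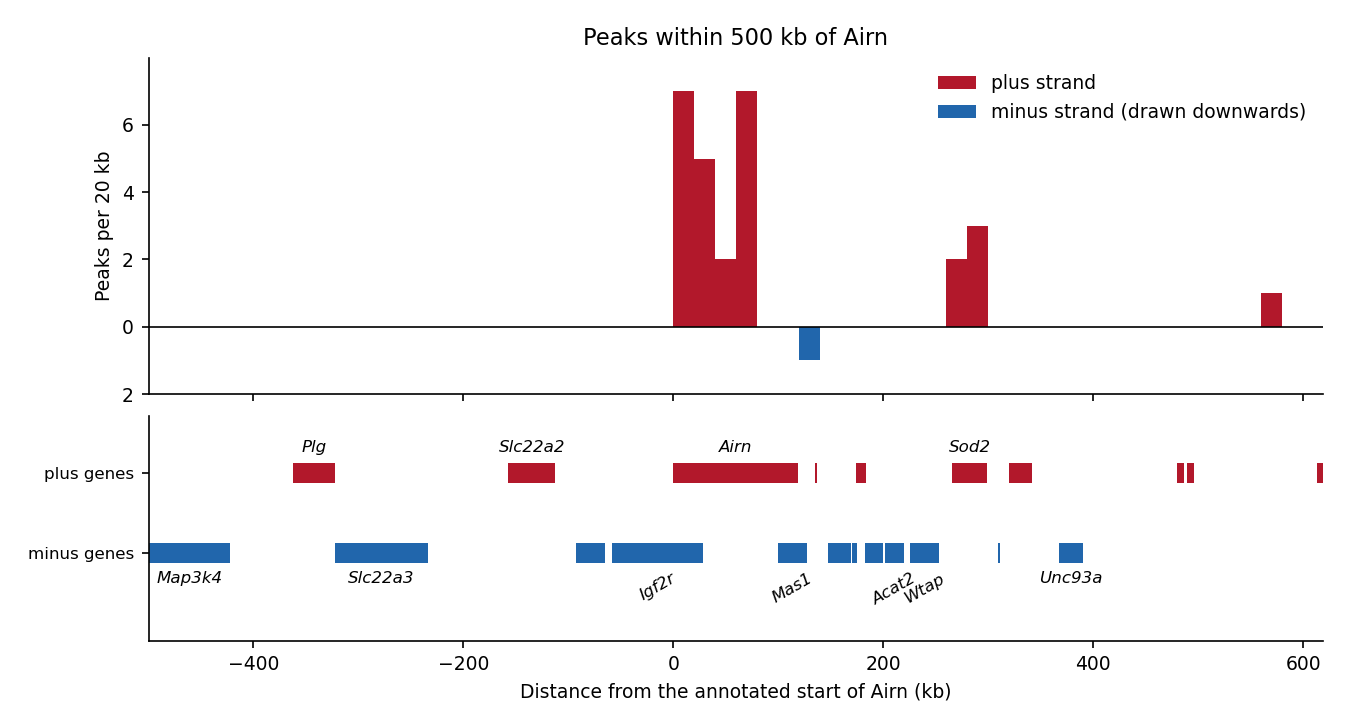
Number of peaks per 20 kb on the plus strand (red, upwards) and minus strand (blue, downwards) by distance from the annotated start of Airn in kb, with protein-coding genes and Airn below, some of them named, and genes cut at the edges of the window. The 500 kb before Airn hold 0 peaks, and the next plus-strand peaks past it lie before and in Sod2.

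The remaining plus-strand peaks gathered at Sod2, the gene of mitochondrial superoxide dismutase. Sod2 held 3 sense peaks over 33.2 kb (0.0903 per kb), of which 1 had its midpoint in an exon. A pair of peaks lay before its start, the nearer one (13005367 to 13006583) ending 262 bases upstream. The last peak (13319264 to 13319389) was outside annotated genes. Of 45 genes in the window, 3 held a sense peak, namely Airn, Mas1 and Sod2. Among its 21 protein-coding genes these were 2, against 26.2% of protein-coding genes overall.

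In the imprinted cluster around Airn, Mas1 held 1 sense peak, and Igf2r, Slc22a2, Slc22a3 and Plg held 0. Among wider flanking genes of chromosome 17, Sod2 held 3 sense peaks, and the acyltransferase gene Agpat4 and the phosphodiesterase gene Pde10a held 2 each. Pnldc1, Mrpl18, Tcp1, Acat2, Acat3, Wtap, Map3k4 and Qk held 0.

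The names of peaks carry numbers that rise along every chromosome and strand. If each number stands for 1 call, 32 calls were made from peak 1 to peak 21, and 21 of them were kept (65.6%, exact interval 46.8 to 81.4). Over the whole list, kept peaks are 9.11% of the highest numbers reached on both strands. These shares are not like measures. The Airn share begins and ends with a kept peak and leaves out any calls in the empty 3′ end. The share of the list takes in every call. The 11 calls that were not kept were unevenly spread, with 3 in each of the widest gaps, 2 between peaks 4 and 5, and 1 in each of 3 other gaps. Before peak 1, 11 calls over 514.7 kb were not kept, and after peak 21, 36 calls over 184.4 kb were not kept. How many of those 36 lie in the last part of Airn cannot be told from the list. On the plus strand past Airn, 6 of 20 calls from the first to the last peak of the window were kept (30%).

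Among genes of similar length Airn had many peaks. Of 2486 genes within 1.5 times its length (79.2 to 178.2 kb), 56.8% held at least 1 sense peak, with a median of 3 among those. At least 21 were held by 17 genes, Airn included (0.684%). Several of the 17 are gamma protocadherin genes that overlap each other and share peaks, so the genes are not all separate examples. By density Airn ranked 49 of the 1053 genes with at least 5 sense peaks, whose median was 0.0527 per kb. By the share of the gene covered it ranked 14, at 19.8% against a median of 4.20%.

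Among the 411 genes with at least 10 sense peaks, Airn stood near the edge in 4 measures of layout. Its share of calls kept, from the first to the last peak of each gene, ranked 3 (median of these genes 21.6%). Its covered share ranked 6 (median 4.59%). Its median gap was the 5th smallest (median 7106 bases). An empty 3′ end as large in proportion was found in 15 of these genes, Airn included (3.65%), with a median of 5.40%. Peaks at its 5′ end began within 0.141% of its length, against a median of 5.83%. Of the 13 long non-coding genes in this set, Airn had the highest covered share, median width, share of calls kept and empty 3′ share, and the smallest median gap. These ranks describe 1 list, and RNA levels of the genes were not used here.

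**Figure D4:**
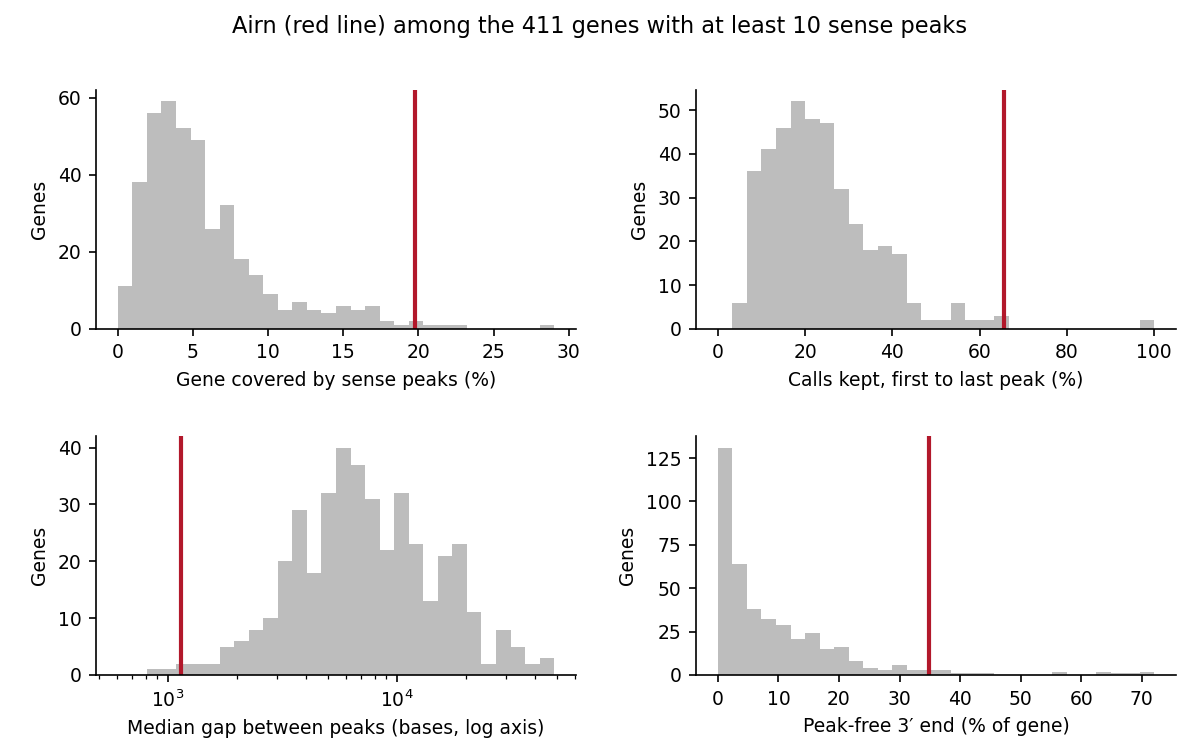
Histograms over the 411 genes with at least 10 sense peaks of the covered share of the gene, the share of calls kept from the first to the last peak, the median gap between peaks (log axis) and the peak-free share at the 3′ end. The red line is Airn, at 19.8%, 65.6%, 1140 bases and 34.8%.

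Kcnq1ot1 is another long imprinted RNA that is mostly unspliced, antisense to a protein-coding gene and known to silence neighbours on the paternal chromosome. Airn held 21 peaks over 118.826 kb and Kcnq1ot1 19 over 93.1 kb, or 0.177 and 0.204 per kb. Airn peaks had a median width of 981 bases and Kcnq1ot1 peaks 525, and 10 Airn peaks but 4 Kcnq1ot1 peaks were at least 1 kb wide. Peaks covered 19.8% of Airn and 13.3% of Kcnq1ot1. Median gaps were 1140 bases in Airn and 1896 in Kcnq1ot1, and the largest 13420 and 16066. Calls kept were 65.6% of 32 in Airn and 43.2% of 44 in Kcnq1ot1.

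The positions differed too. In 3 equal parts from 5′ to 3′, Airn had 12, 9 and 0 peaks and Kcnq1ot1 3, 13 and 3. The first peak lay 168 bases from the start of Airn and 3879 bases from the start of Kcnq1ot1. The empty 3′ end was 41367 bases in Airn and 8053 in Kcnq1ot1.

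**Figure D5:**
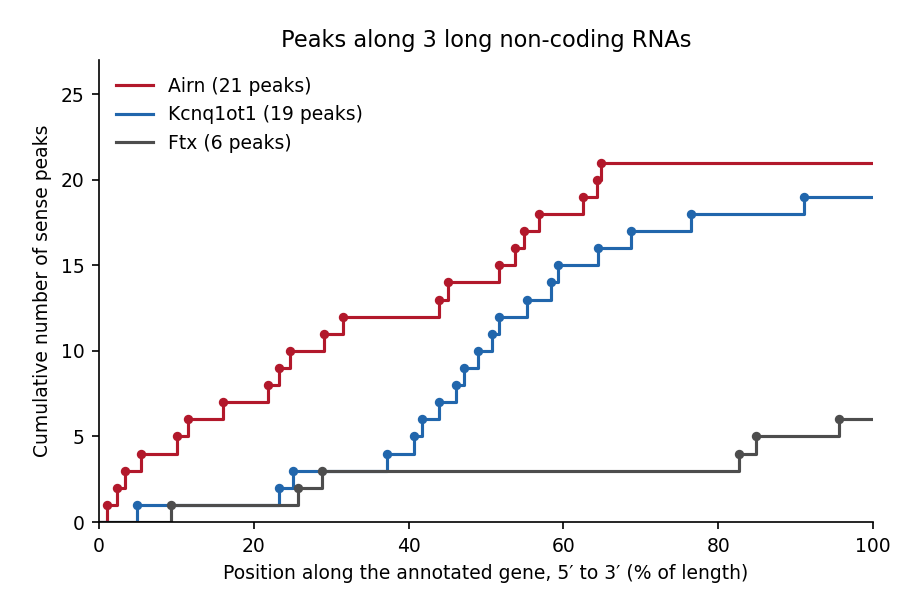
Cumulative number of sense peaks along the annotated gene, from 5′ to 3′ in % of its length, for Airn (21 peaks), Kcnq1ot1 (19) and Ftx (6). Each point is 1 peak at its midpoint. Airn gains peaks from its start and none after 64.9% of its length, while Kcnq1ot1 gains most of its peaks in the middle.

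In the list of 12 other non-coding RNAs of imprinted clusters and X inactivation, 10 held a sense peak, and Kcnq1ot1 and Ftx held at least 5. Of all long non-coding genes 8.14% held a sense peak. The list was chosen with results known, so the difference says nothing of imprinted RNAs as a class. Ftx, a non-coding gene of the X inactivation centre, held 6 over 62.9 kb (0.0954 per kb), 3 in the 5′ part, 0 in the middle and 3 in the 3′ part, with 6.62% covered. The other 8 with a peak held 1 to 4 each. Several of these genes are short, and those of the X inactivation centre overlap each other, so counts are not comparable without length. By density, 1 of these genes reached 0.211 per kb with 3 peaks. Another reached 0.203 per kb with 4 peaks and 25.0% covered. Both were denser than Airn, and the rest of the 8 were less dense. Some of the 8 also had a larger median width or a larger empty 3′ share than Airn.

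The genes most like Airn in density, length and median peak width all belonged to 1 locus. Likeness was the distance over z-scored log2 density, log2 gene length and log2 median width, among 410 other genes with at least 10 sense peaks. The nearest were Pcdhga7 (distance 0.271), Pcdhgb4 (0.353), Pcdhga5 (0.372), Pcdhga6 (0.373) and Pcdhgb2 (0.400), gamma protocadherin genes of chromosome 18 that share their 3′ exons. They held 24 distinct peaks between them, of which 17 lay in all 5, so they count as 1 example. Positions and gaps did not enter the distance, and in these the 5 genes differed from Airn. Their median gaps were 3566 to 3640 bases (Airn 1140). Their calls kept were 36.2 to 39.6% (Airn 65.6%), and their empty 3′ ends 13.7 to 17.2% (Airn 34.8%). A further setting, added once the data had been seen, left out peaks that lie in more than 1 gene. The nearest were then Sema6a, Cradd, Cyyr1, Fam178b and Slc1a3, with distances from 0.446 to 0.902. Sema6a, a semaphorin gene, held 21 peaks over 133.3 kb, as many as Airn, with a median gap of 4271 bases and an empty 3′ end of 9.21%. Cradd held 23 peaks with a median gap of 1279 bases.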

How the data were processed

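RNA recovered by immunoprecipitation was sequenced from 9 libraries in 5 groups. The data are a single peak list of 6 columns without a header, made for the series as a whole. The authors deposited a score of 500 for every peak, and it was not used. Per the submitters' processing notes, the build was mm10 and STAR, Subread and featureCounts were used. The peak caller and any pooling of libraries were not given in the sources used here.

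Starts were taken as counted from 0 and raised by 1. Genes and transcripts came from GENCODE M21 (GRCm38). A peak belonged to a gene when its midpoint lay in it on the same strand, and the counting was tested on simulated data. Analyses used Python 3.11.15, pandas 2.3.3 and scipy 1.17.1. Shares have exact (Clopper-Pearson) 95% intervals. Ranks used genes with at least 5 or 10 sense peaks. The members, gene lists and the rule for named genes (Airn, Igf2r, genes within 500 kb with a sense peak, 3 lists, the non-coding one by members with at least 5 peaks, and the 5 genes most like Airn) were chosen with earlier results of these data known. Planned purine content of whole peaks needs a genome sequence and was not run. Some members of the lists are not reported here.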

Additional observations from a re-analysis of the deposited data

How the results depend on the processing

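Of 33 alternative values, 26 stayed within the interval of the reported value or within 1.5 times a count. Some of the 26 could not move, so their number is no measure of stability. The longest Airn transcript has the bounds of the gene. The share of peaks overlapping Igf2r is the same up to the end of the last peak by definition. With peaks under 1 kb apart merged, Airn had 11 peaks, a density of 0.0926 per kb and a median gap of 4345 bases. Its rank by density was 17 among genes with at least 10 peaks. The share of calls kept was 30% when taken over plus-strand peaks of the window outside Airn. Of the 5 genes most like Airn, 0 were among the 5 nearest without peak width and 0 with peaks in more than 1 gene left out, a setting added after seeing the data. The count of 21 was the same by any overlap, for peaks wholly inside Airn, and with starts counted from 1, and 17 of them reached the median width of the list. No paired analysis was possible because the list has no column per library, and for the same reason no replicate could be left out. The alternatives for purine content were not run without a genome sequence. Depth is unknown, so a missing peak does not show missing binding.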

Other observations

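Annotated sequence at the 3′ edge of the occupied part recurred little in other transcripts. Of the 30-base words of Airn-201 exon 2, 3.00% (31 of 1033) occurred in transcripts of other genes on either strand, and 0 of the words of the other 7 exonic stretches of Airn did. For the pseudogene Gm16574, just past peak 21, 0 of 716 words did, and for Gm7162 69 of 995 (6.94%). Transcripts hold a small part of the genome, so copies elsewhere were not counted, and what part mapping has in the empty 3′ end was not tested.

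Between the previous plus-strand peak and peak 1 of Airn lay 514.7 kb without a plus-strand peak, and between peak 21 and the next one 184.4 kb. The labels do not say whether each number in a peak name stands for 1 call. If so, there were 41.4 calls per 100 kb from peak 1 to peak 21. From there to the next kept peak there were 19.5 per 100 kb. These are not like measures. The first stretch begins and ends with a kept peak and counts 21 kept calls with 11 not kept. The second lies mostly past Airn and by definition counts only calls not kept, 36 of them.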
